A study of Mus musculus with 7 samples.

Results

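The milk protein genes examined here are Csn1s1, Csn2, Csn1s2a, Csn3, Wap, Lalba, Glycam1, Btn1a1 and Ltf, 9 of 21911 protein-coding genes of the mouse annotation. Accessible regions were assigned to them by position alone. Overlapping or touching rows of the peak lists of Dll1+ and Dll1− tumor cells were merged into union regions, and a region belonged to a gene when the transcription start site (TSS) nearest to its midpoint, among protein-coding genes, was that gene's. This gave 37 regions of 119215. Each gene is described by the presence of its regions in the 2 lists and by their strength.

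Milk proteins are made by luminal alveolar cells of the mammary gland in late pregnancy and lactation. Prolactin acts through its receptor and JAK2 to activate STAT5, which works with the glucocorticoid receptor, ELF5, C/EBPβ and NF1 factors at the promoters and enhancers of these genes. Csn1s1, Csn2, Csn1s2a and Csn3 encode the αS1, β, αS2 and κ caseins and lie in 1 cluster on chromosome 5. Wap encodes whey acidic protein and Lalba α-lactalbumin, the regulatory subunit of lactose synthase. Btn1a1 encodes butyrophilin, a protein of the milk fat globule membrane. Glycam1 encodes a mucin-like glycoprotein of milk that is also made by high endothelial venules. Ltf encodes the iron-binding protein lactoferrin, which neutrophils also carry in their granules.

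ATAC-seq, in which a transposase inserts adapters into open chromatin, had been performed on cells of spontaneous mammary tumors from MMTV-PyMT; Dll1-mCherry mice on a C57BL/6 background. In both groups the mouse mammary tumor virus promoter drove the polyoma middle T oncogene in mammary epithelium, and a reporter on a bacterial artificial chromosome marked cells that express the Notch ligand gene Dll1 with mCherry. Cells bearing CD45, CD31 or Ter119 (leukocyte, endothelial and erythroid surface proteins) had been sorted out, and mCherry separated Dll1+ from Dll1− cells. The 3 Dll1+ and 4 Dll1− samples came from 4 tumors, of which 3 gave both, so 1 tumor contributed only Dll1− cells. No treatment, time point or animal age was given, and the reporter allele was shared by both groups.

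Each group had 1 pooled peak list, so no value has a spread between replicates and no difference could be tested. The strength of a row is its fold enrichment, the reads at the summit over the local background, and is given here as a percentile: the share of all rows of the same list at or below it. Reads were recovered from the deposited fold and p-value. The lowest background recovered at any row of a list was taken as its genome-wide background. It was 3.74 reads for Dll1+ and 7.20 for Dll1−, and was not measured away from peaks. This 1.93-fold difference, read as one of depth, favors the calling of weak regions in the Dll1− list. A region missing from a list is one that was not called at that list's depth. Among rows at this genome-wide background, none held fewer than 9 reads (Dll1+ list) or 14 reads (Dll1− list). Reads divided by the genome-wide background are called depth-scaled reads, and their ratio (Dll1+ over Dll1−) has an exact 95% interval that covers counting error only. In pooled cells, fewer accessible cells and less accessibility per cell cannot be told apart.

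The labelled cell type was checked at promoters of marker genes, a promoter being the stretch that begins 1000 bp before a TSS and ends 100 bp after it. All 7 epithelial markers, among them Epcam, Krt8 and Krt18, had a promoter region in both lists, as did 60.0% of all protein-coding genes, while 36.4% had one in neither. Of the 5 basal markers, Acta2 and Oxtr had one and Krt5, Krt14 and Trp63 did not. Promoter regions in both lists were found for 1 of 5 endothelial (Kdr), 1 of 5 fibroblast (Pdgfra) and 0 of 4 adipocyte markers. The immune markers Ptprc, Cd3e and Itgam had a promoter region in neither list.

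The promoter sequences are shown first, those outside and those inside called regions apart. The RefSeq promoter table (GRCm38.p6) held 7 of the 9 genes, all but Csn3 and Btn1a1. The 150 bases before the gene start are given 5′ to 3′ on the strand of the gene, with matches to the STAT sequence TTCNNNGAA or the ELF5 sequences AGGAAGT and CGGAAGT in capitals. The promoters of Csn1s1, Csn2 and Glycam1 each held a STAT match within 150 bases of the start, and none of these bases lay in a region of either list.
Csn1s1 (chr5:87666058-87666207, plus strand): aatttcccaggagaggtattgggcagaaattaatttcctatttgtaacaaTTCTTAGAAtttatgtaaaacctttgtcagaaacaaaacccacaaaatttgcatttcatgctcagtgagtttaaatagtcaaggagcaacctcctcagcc
Csn2 (chr5:87699426-87699575, minus strand): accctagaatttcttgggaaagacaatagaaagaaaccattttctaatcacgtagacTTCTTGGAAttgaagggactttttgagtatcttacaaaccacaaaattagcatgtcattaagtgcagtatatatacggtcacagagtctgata
Glycam1 (chr15:103565082-103565231, minus strand): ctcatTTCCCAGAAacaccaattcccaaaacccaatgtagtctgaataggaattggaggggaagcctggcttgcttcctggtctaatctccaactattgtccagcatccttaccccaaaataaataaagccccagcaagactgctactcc
The promoters of Wap, Lalba and Ltf held no STAT match in these bases, and all 150 bases lay in a called region, shared for Wap and Lalba and in the Dll1− list only for Ltf.
Wap (chr11:6638650-6638799, minus strand): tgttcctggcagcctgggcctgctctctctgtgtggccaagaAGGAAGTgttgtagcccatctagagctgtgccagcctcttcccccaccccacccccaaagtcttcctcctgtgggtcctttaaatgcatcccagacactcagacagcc
Lalba (chr15:98482684-98482833, minus strand): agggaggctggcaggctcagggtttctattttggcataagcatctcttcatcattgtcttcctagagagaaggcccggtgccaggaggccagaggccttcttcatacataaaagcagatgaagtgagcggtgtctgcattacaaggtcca
Ltf (chr9:111019142-111019291, plus strand): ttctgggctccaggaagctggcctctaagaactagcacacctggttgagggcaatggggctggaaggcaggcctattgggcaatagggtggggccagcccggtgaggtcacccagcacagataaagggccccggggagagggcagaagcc
The Csn1s2a promoter, with no region in either list, held neither match in its 250 bases. This grouping was made after the regions were seen. In the 250 bases before the start, 3 of the 7 promoters held a STAT match, against 7.02% of the 32851 promoters in the table. An ELF5 match was present in 1 of the 7, against 12.2%. These matches are letters in the sequence, searched on both strands, and no binding was measured.

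Of the 9 milk protein genes, Csn3, Wap, Lalba and Btn1a1 had a promoter region in both lists, against 60.0% of all protein-coding genes. The Ltf promoter was called in the Dll1− list only, as in 3.02% of genes. Csn1s1, Csn2, Csn1s2a and Glycam1 had no promoter region in either list, like the 36.4% of genes given above. No milk protein gene had a promoter region in the Dll1+ list only, against 0.525% of genes. Outside promoters, 31 further regions lay up to 62.2 kb from the TSS. By midpoint, 23 of the 37 regions were intergenic, 9 were intronic, 2 lay in coding exons, 2 in UTRs and 1 in a non-coding exon. These classes count any annotated gene. The intronic regions nearest to Csn3, its promoter region among them, lay in introns of 1700066N21Rik, which overlaps Csn3. The UTR region nearest to Lalba lay in a UTR of OR5BS1P.

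**Figure D1:**
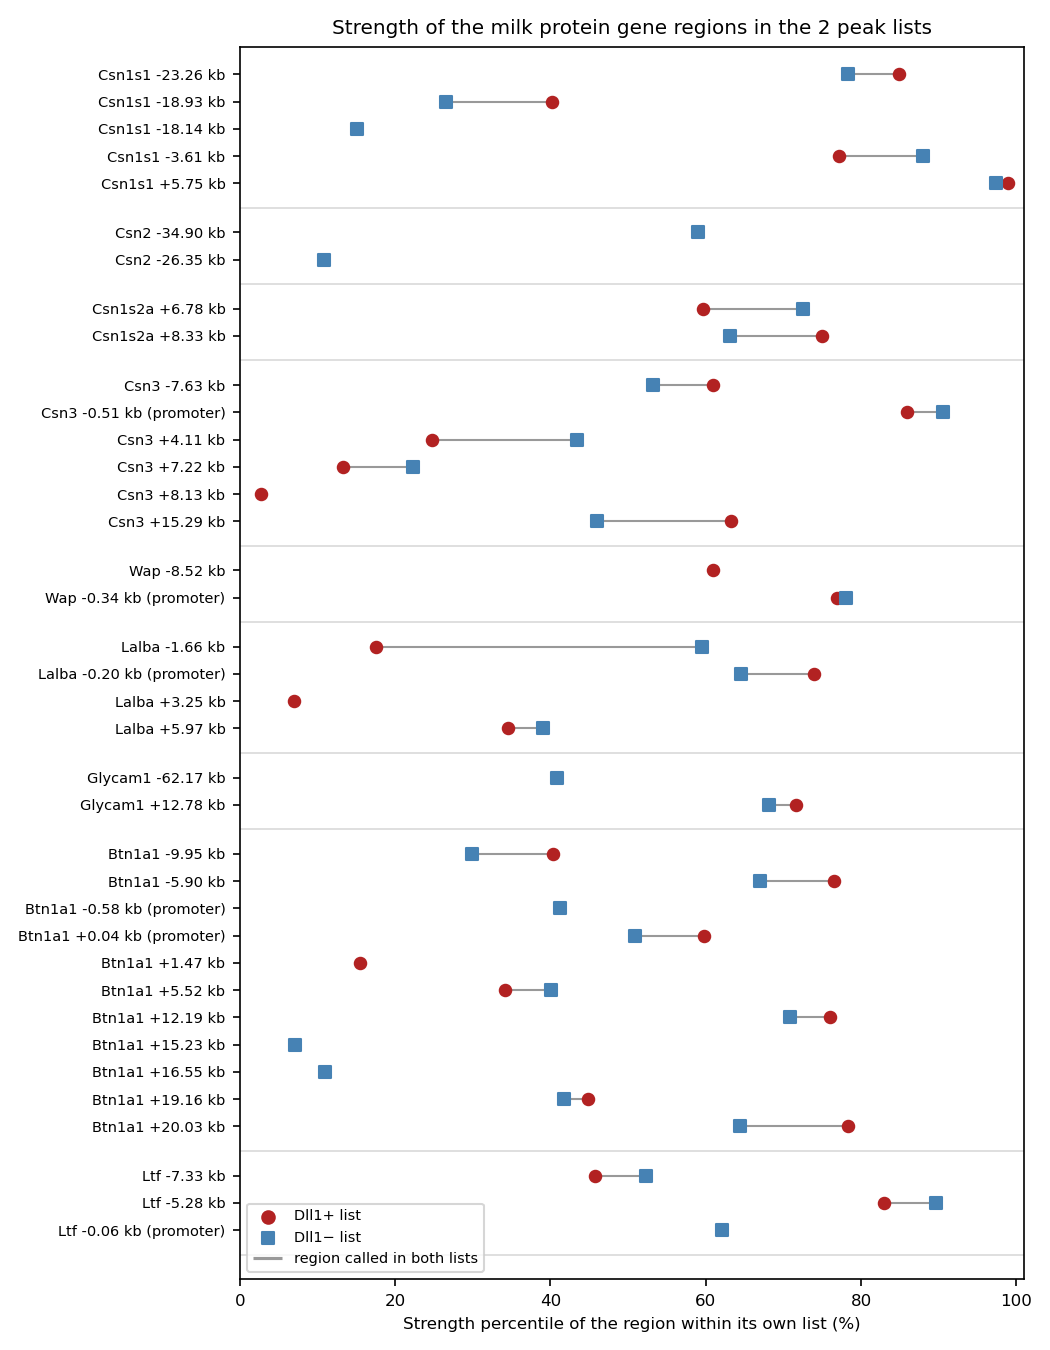
Strength percentile of each of the 37 regions (x axis, in %) in the Dll1+ list (circles) and in the Dll1− list (squares), by gene and distance from the TSS (y axis). Grey lines join the values of the 25 regions called in both lists. The longest line is that of the Lalba region 1.66 kb upstream, and Csn2 has squares only.

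Most milk gene regions were called in both populations. Of the 37 regions, 25 were shared (67.6%, 95% Wilson interval 51.5 to 80.4%), against 66.4% of all union regions. The Dll1+ list alone held 4 (10.8%, interval 4.29 to 24.7%), against 9.01% of all union regions, and the Dll1− list alone held 8 (21.6%, interval 11.4 to 37.2%), against 24.6%. The intervals cover counting error only, and each contains the share over all regions. They treat regions as independent, although 15 belonged to the 4 casein genes and 11 to Btn1a1, so they test no difference. With only rows above the median fold of their list, the counts fell to 2 (9.52%) and 4 (19.0%) of 21 regions, against 9.85% and 20.4% over all. With that threshold asked only of regions called in 1 list, they were 1 (3.57%) and 2 (7.14%) of 28, against 1.90% and 7.10% over all. The 4 casein genes had 11 shared, 1 Dll1+ only and 3 Dll1− only regions, and the other 5 genes had 14, 3 and 5.

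By fold, the regions called in 1 list only were mostly weak in the Dll1+ list and weak to intermediate in the Dll1− list. The 4 in the Dll1+ list held 25 to 36 reads at a median percentile of 11.2 (2.67 to 61.0), the highest being that of Wap. The 8 in the Dll1− list held 20 to 70 reads at a median percentile of 28.0 (7.11 to 62.1). Over all union regions, the median percentile of such regions was 29.9 for the Dll1+ list and 33.1 for the Dll1− list. By reads they were not weak: the medians were 32.5 (Dll1+ only) and 48.5 (Dll1− only), against 22 and 36 over all. The Dll1+ only regions of Csn3, Lalba and Btn1a1 lay on local backgrounds of 4.09, 2.46 and 2.87 times the genome-wide level. Scaled to the Dll1− background, the 4 Dll1+ only regions came to between 48.1 and 69.3 reads.

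**Figure D2:**
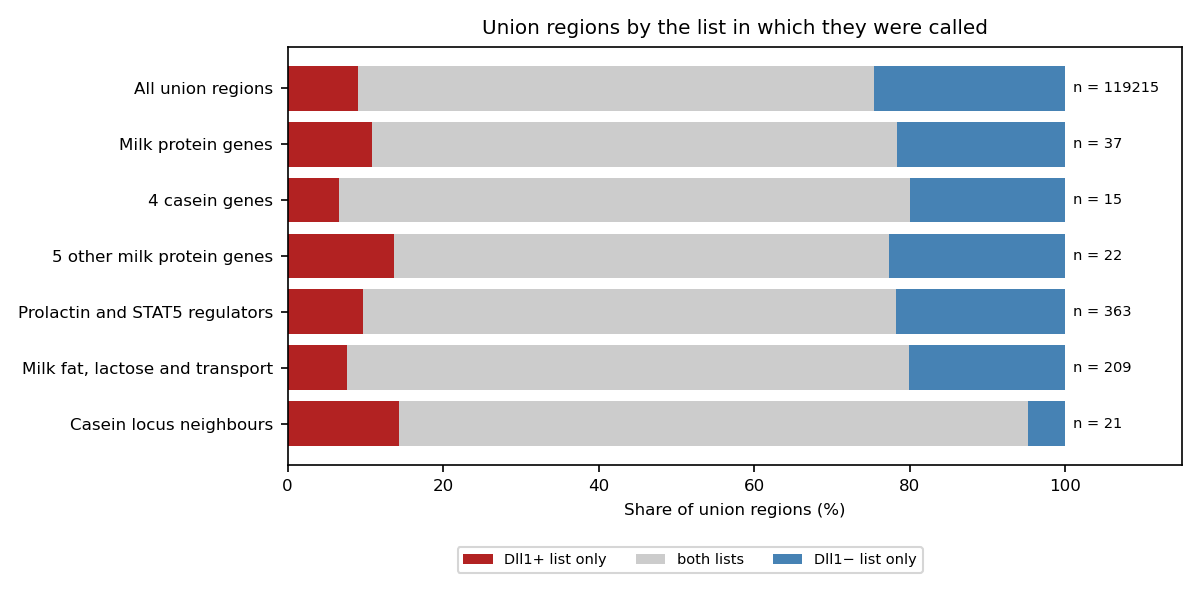
Share of union regions (x axis, in %) called in the Dll1+ list only, in both lists or in the Dll1− list only, for all union regions, the milk protein genes and related gene lists (y axis, with the number of regions beside each bar). The bar of the 37 milk gene regions (10.8%, 67.6% and 21.6%) lies near that of all 119215 regions (9.01%, 66.4% and 24.6%).

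Among the 25 shared regions, strength differed between the lists in both directions. The percentile was higher in the Dll1− list in 11 (44.0%, 95% Wilson interval 26.7 to 62.9%) and higher in the Dll1+ list in 14. With the longer list reduced to as many rows as the shorter, it was higher in the Dll1− list in 7 of 25 (28.0%), against 48.3% of all shared regions under the same rule. With all rows kept, 59.0% of all shared regions ranked higher in the Dll1− list. The median difference in percentile (Dll1− minus Dll1+) was −3.11 in the milk gene regions and 1.66 over all shared regions, and it ranged from −17.2 to 42.0 among the milk gene regions. On the scale of depth-scaled reads the median ratio was 1.53 in the milk gene regions and 1.18 over all shared regions, and it was below 1 in 3 of 25 and in 23934 of 79153.

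The ratio lay above the median of all shared regions in 20 of the 25 milk gene regions and below it in 5. Its interval lay wholly above that median in 10, wholly below in 1 (the Lalba region 1.66 kb upstream) and held it in 14. The ratio is also given by depth and by place. In regions with under 50 reads in the Dll1− list its median was 1.60 in 6 milk gene regions and 1.42 over all. From 50 to under 150 reads the medians were 1.47 in 16 and 1.14 over all, and from 150 reads they were 1.53 in 3 and 1.13 over all. For the casein genes the median of 11 shared regions was 1.66, against 1.35 in the 59 other shared regions within 1 Mb of them and 1.16 in the rest of chromosome 5. For Btn1a1 the median of 7 was 1.65 (2.20 in the 4 that overlap no tRNA gene), against 1.27 in 78 such neighbours. The single shared regions of Wap and Glycam1 had ratios of 1.36 and 1.32, against medians of 1.04 and 1.03 among their neighbours. The medians were 1.34 against 1.11 for Lalba (3 regions) and 1.07 against 1.03 for Ltf (2 regions). In the rest of the chromosome the median was 1.07 for Wap, 1.18 for Lalba and Glycam1 and 1.21 for Btn1a1. For Ltf it was 1.14, which is above the median of the Ltf regions. The part of depth and neighbourhood in these ratios was not tested.

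**Figure D3:**
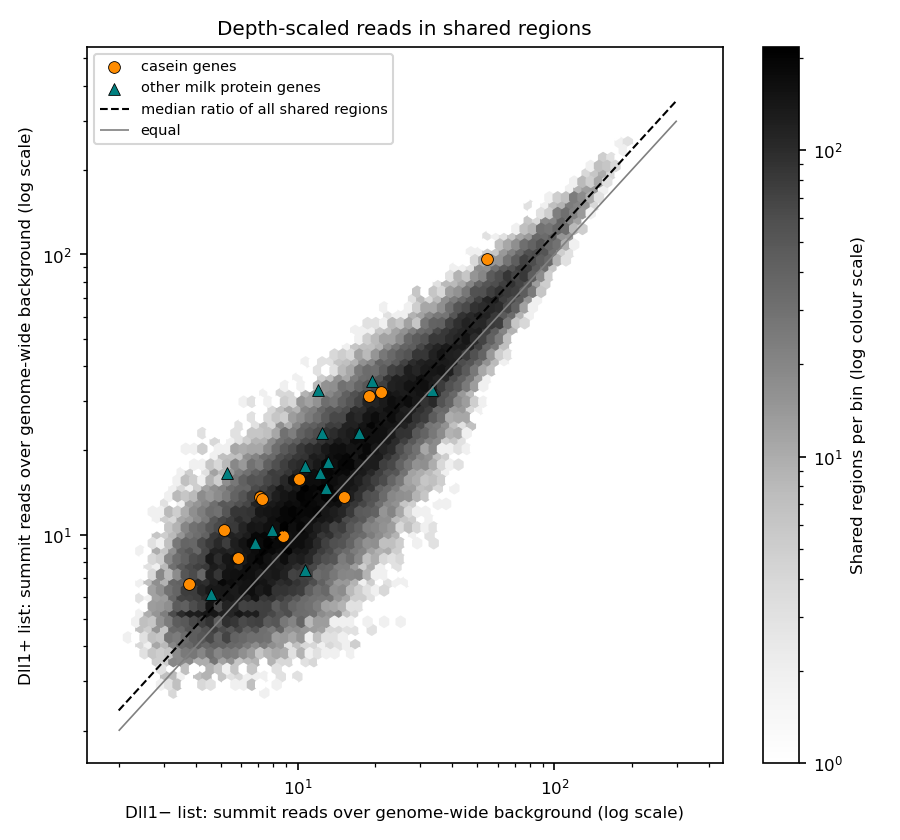
Reads at the strongest summit over the genome-wide background for the Dll1− list (x axis, log scale) and the Dll1+ list (y axis, log scale) for shared regions. Grey bins count all shared regions, circles are casein regions and triangles regions of the other milk protein genes. The dashed line is the median ratio of all shared regions (1.18), and 20 of the 25 marked points lie above it.

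Csn1s1 had the strongest region of the set. Its 5 regions comprised 4 shared and 1 Dll1− only, with no region at the promoter. The strongest lay in an intron 5.75 kb downstream of the TSS (chr5:87671690-87672281) and had a fold of 21.6 (percentile 98.9, 121 reads) in the Dll1+ list. In the Dll1− list it had a fold of 18.7 (percentile 97.4, 152 reads), and the ratio of depth-scaled reads was 1.53 (interval 1.20 to 1.96). This intronic region was thus near the top of both lists.

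The other Csn1s1 regions lay upstream. The region 23.3 kb upstream had percentiles of 84.9 (Dll1+) and 78.4 (Dll1−). The region 3.61 kb upstream went the other way, with percentiles of 77.1 and 88.0 and a ratio of 0.901 (interval 0.633 to 1.27); it was named after its values were seen, as the single casein region with a ratio below 1. The Dll1− only region, 18.1 kb upstream, had a fold of 2.81 and 22 reads, which scaled to the Dll1+ background are 11.4 reads.

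Csn2, the gene of β-casein, was the only milk protein gene without a region in the Dll1+ list. Both of its regions were called in the Dll1− list only and lay upstream, between Csn2 and Csn1s2a. The region 34.9 kb upstream (chr5:87734366-87734692) had a fold of 5.85 (percentile 59.0, 47 reads). The region 26.3 kb upstream had a fold of 2.56 (percentile 10.9, 20 reads). Scaled to the background of the Dll1+ list these are 24.4 and 10.4 reads, and the second is close to the fewest that any listed row held.

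Csn1s2a had 2 shared regions, both in its introns, and none at its promoter. The region 6.78 kb downstream of the TSS ranked higher in the Dll1− list (percentile 72.5, fold 7.81) than in the Dll1+ list (59.6, fold 6.60). The region 8.33 kb downstream ranked higher in the Dll1+ list (percentile 75.0, fold 9.11) than in the Dll1− list (63.1, fold 6.34), with 51 reads in each and a ratio of 1.93 (interval 1.28 to 2.90). The ratio of the first was 1.13 (interval 0.733 to 1.72), close to the median of all shared regions, which its interval holds.

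Csn3, the gene of the micelle-stabilizing κ-casein, had 5 shared regions and 1 Dll1+ only region and was the casein with an accessible promoter. The promoter region (chr5:87924368-87925771) held 359 reads in the Dll1+ list (fold 12.1, percentile 85.9) and 392 reads in the Dll1− list (fold 13.3, percentile 90.6), the most reads of any milk gene region. Its local background was 28.8 and 28.6 reads, or 7.70 and 3.97 times the genome-wide background. The fold, taken over this local background, ranked higher in the Dll1− list, while the depth-scaled reads were higher in the Dll1+ list, with a ratio of 1.76 (interval 1.52 to 2.04). The direction at this promoter thus depends on the background used. The Dll1+ only region, 8.13 kb downstream, had a low fold of 2.15, with 34 reads and percentile 2.67. All but the promoter region of Csn3 had percentiles between 13.3 and 63.2 where shared.

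The 4 caseins examined here lie among other genes, including a further casein gene, Csn1s2b, and the cluster was also read as a whole. Between 25 kb before Csn1s1 and 25 kb past Csn3, a stretch of 316 kb, there were 24 regions, of which 18 were shared, 2 Dll1+ only and 4 Dll1− only, against 66.4%, 9.01% and 24.6% of all union regions. The milk protein genes examined here were nearest to 15 of them. The strongest of the other 9, and of the cluster, lay in an intron of Csn1s2b (chr5:87819964-87820570), with its midpoint nearest to the TSS of Prr27. It had folds of 25.3 in the Dll1+ list (percentile 99.8, 315 reads) and 26.2 in the Dll1− list (percentile 99.9, 459 reads).

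**Figure D4:**
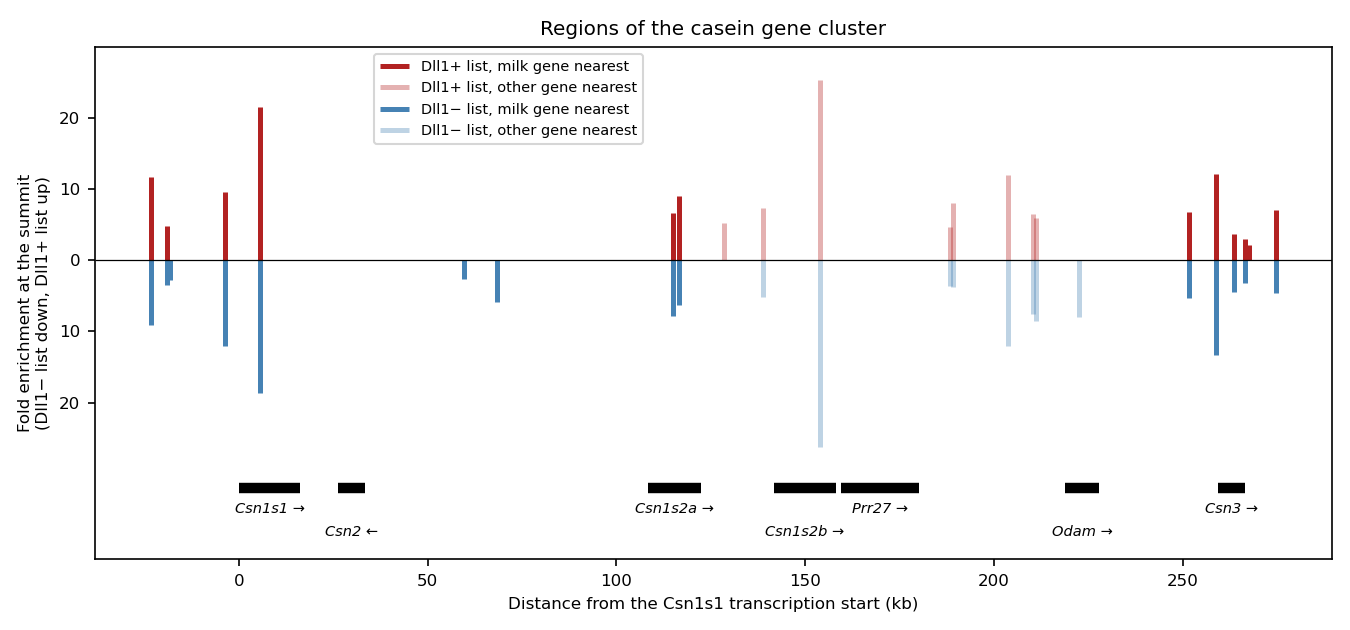
Fold enrichment at the summit (y axis, Dll1+ list upward and Dll1− list downward) of the 24 regions of the casein cluster by distance from the Csn1s1 TSS (x axis, kb), with genes as black bars and arrows for their direction. Dark bars are the 15 regions nearest to a milk protein gene examined here. The tallest bars stand in an intron of Csn1s2b, and the 2 regions nearest to Csn2 have downward bars only.

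Wap was accessible at its promoter in both lists. The promoter region (chr11:6638358-6639605) had a fold of 9.53 (percentile 76.9, 62 reads) in the Dll1+ list and 8.97 (percentile 78.1, 88 reads) in the Dll1− list. The percentiles differed by 1.17, and the ratio of depth-scaled reads was 1.36 (interval 0.964 to 1.90), which holds the median of all shared regions. Its summit window held the STAT match TTCCCAGAA, centred 577 bp upstream of the TSS. The second Wap region, 8.52 kb upstream, was called in the Dll1+ list only, with a fold of 6.75 (percentile 61.0, 31 reads). It was the strongest Dll1+ only region of the milk protein genes, and 31 reads scaled to the Dll1− background are 59.7 reads.

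Lalba had 3 shared regions and 1 Dll1+ only region. Its promoter region (chr15:98482609-98483237) ranked higher in the Dll1+ list, with a fold of 8.87 (percentile 73.9, 86 reads) against 6.58 (percentile 64.5, 89 reads). The ratio of depth-scaled reads was 1.86 (interval 1.37 to 2.53). The next region upstream, 1.66 kb from the TSS (chr15:98483967-98484791), went the other way and was named after its values were seen. It had a fold of 3.27 (percentile 17.5, 28 reads) in the Dll1+ list and 5.95 (percentile 59.5, 77 reads) in the Dll1− list, a difference of 42.0 percentile points. Of all shared regions, 1.30% differed by at least as much in this direction. Its ratio was 0.700 (interval 0.437 to 1.09), and neither list's fold has a replicate check. The Dll1+ only region, 3.25 kb downstream, had a fold of 2.55 and 25 reads (percentile 7.02).

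Ltf was the gene with a promoter region in 1 list only. That region (chr9:111019041-111019389) had a fold of 6.22 (percentile 62.1, 50 reads) in the Dll1− list, and 50 reads scaled to the Dll1+ background are 26.0 reads. It was the strongest of the 8 Dll1− only regions. The strongest Ltf region lay 5.28 kb upstream (chr9:111013697-111014290) and was shared, with folds of 11.1 (percentile 83.0, 123 reads) in the Dll1+ list and 12.9 (percentile 89.7, 239 reads) in the Dll1− list. Its ratio was 0.991 (interval 0.791 to 1.24), and both shared Ltf regions ranked higher in the Dll1− list. The promoter of Csf1r, a receptor of macrophages, was likewise called in the Dll1− list only (percentile 76.0) while those of the leukocyte genes Ptprc, Cd3e and Itgam were called in neither list. The part of such cells in the Ltf result was not tested.

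Btn1a1 had the most regions, 11, of which 7 were shared, 1 was Dll1+ only and 3 were Dll1− only. Of the shared regions, 6 ranked higher in the Dll1+ list. Those 12.2 kb, 19.2 kb and 20.0 kb downstream (shared) and 15.2 kb downstream (Dll1− only) each overlapped a tRNA gene of the RefSeq annotation and belong to Btn1a1 only as the nearest protein-coding TSS. No other milk gene region did, and 0.138% of all union regions did. The promoter region over the TSS (chr13:23465568-23466113) had a fold of 6.62 (percentile 59.7, 66 reads) in the Dll1+ list and 5.06 (percentile 50.9, 77 reads) in the Dll1− list. The strongest region in the Dll1+ list was the one over a tRNA gene 20.0 kb downstream, with percentiles of 78.3 (Dll1+) and 64.5 (Dll1−). The strongest in the Dll1− list, also over a tRNA gene, lay 12.2 kb downstream, with percentiles of 76.1 and 70.8. Without the tRNA regions, the strongest in both lists was the one 5.90 kb upstream, with percentiles of 76.5 and 66.9. The highest ratios of depth-scaled reads among all milk gene regions were those of the Btn1a1 regions 9.95 kb and 5.90 kb upstream, at 3.14 (interval 2.07 to 4.84) and 2.75 (interval 2.07 to 3.67). The local background there was 3.25 and 3.23 times the genome-wide level for Dll1+ and 1.35 and 1.61 times for Dll1−.

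The Btn1a1 regions called in 1 list only lay on local backgrounds of 2.02 to 3.70 times the genome-wide level. In the Dll1− list they lay 583 bp upstream (fold 4.30, percentile 41.2, 66 reads), inside the promoter window, and 15.2 kb (over a tRNA gene) and 16.6 kb downstream (folds 2.32 and 2.57). In the Dll1+ list, the region 1.47 kb downstream lay in a coding exon and had a fold of 3.16 (percentile 15.4, 36 reads).

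Glycam1 had no promoter region and 2 distant regions. The region 12.8 kb downstream (chr15:103552162-103552385) was shared, with folds of 8.44 (percentile 71.7, 39 reads) in the Dll1+ list and 7.07 (percentile 68.2, 57 reads) in the Dll1− list. The ratio was 1.32 (interval 0.854 to 2.02). The region 62.2 kb upstream was called in the Dll1− list only, with a fold of 4.27 and 34 reads (percentile 40.9).

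**Figure D5:**
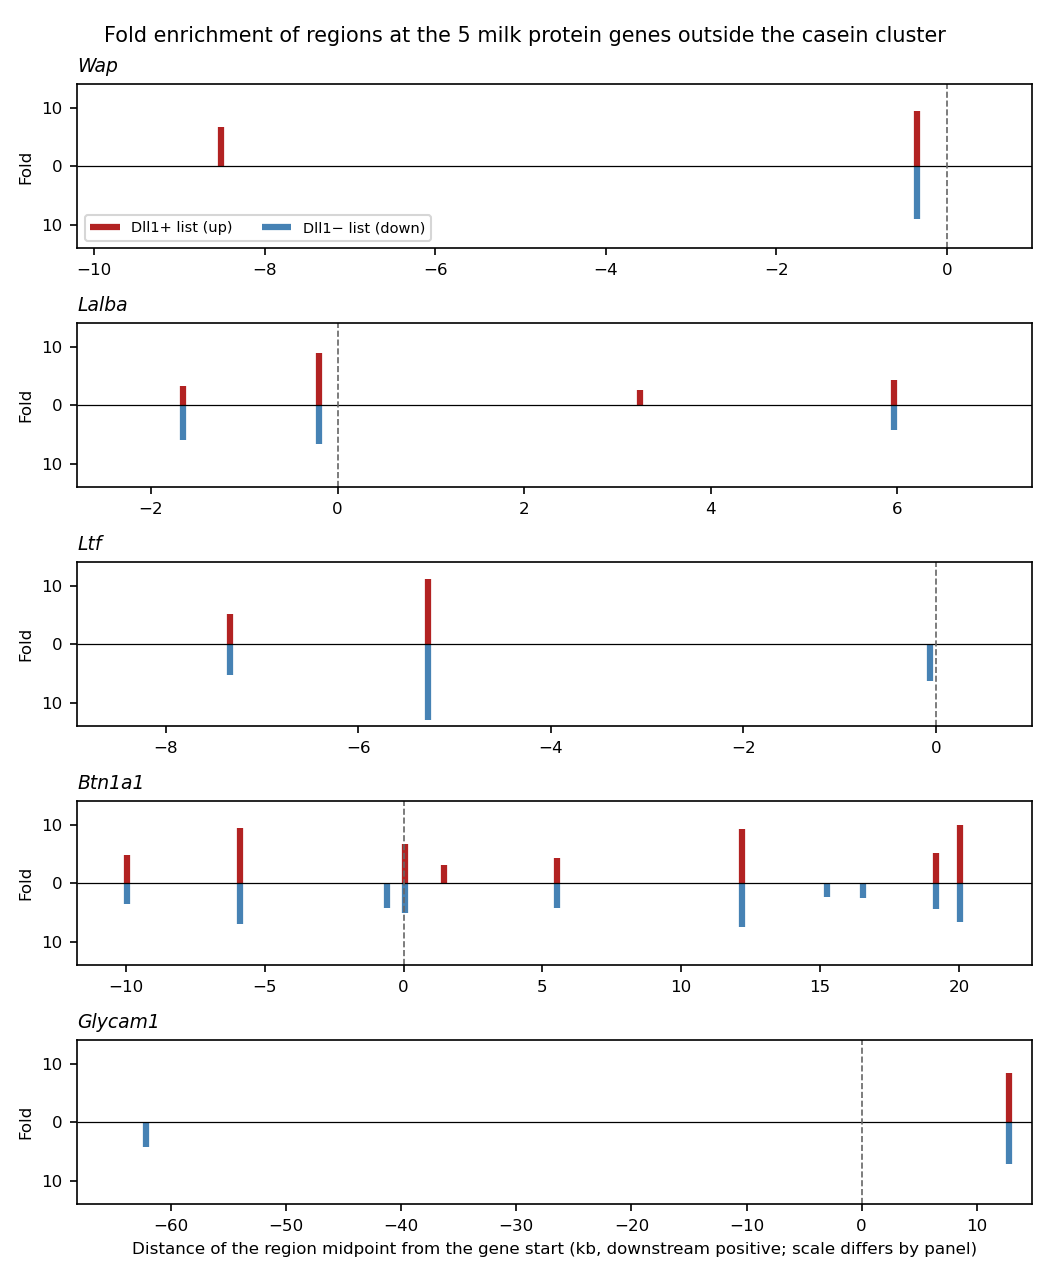
Fold enrichment at the summit (y axis, Dll1+ list upward and Dll1− list downward) of the regions of Wap, Lalba, Ltf, Btn1a1 and Glycam1 by distance of the region midpoint from the TSS (x axis, kb, scale differing by panel; the dashed line marks the TSS). Wap and Lalba have bars in both directions at the TSS, Ltf a downward bar alone and Glycam1 none.

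Sequences at distal summits are shown for regions on which the comparison rests: the strongest Csn1s1, Ltf and Glycam1 regions, the stronger Csn2 region and the Csn3 region with a STAT match near its summit. Each is 100 bases around the strongest summit in GRCm38, 5′ to 3′ on the strand of the gene, with matches to the searched motifs in capitals.
Csn1s1, intron, shared (chr5:87671870-87671969, plus strand): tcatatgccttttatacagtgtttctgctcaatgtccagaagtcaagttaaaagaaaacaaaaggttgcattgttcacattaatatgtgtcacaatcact
Ltf, upstream, shared (chr9:111013983-111014082, plus strand): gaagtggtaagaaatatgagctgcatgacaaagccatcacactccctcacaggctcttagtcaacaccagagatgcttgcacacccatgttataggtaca
Glycam1, downstream, shared (chr15:103552231-103552330, minus strand): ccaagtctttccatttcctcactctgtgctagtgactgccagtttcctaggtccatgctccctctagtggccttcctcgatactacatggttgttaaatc
Csn2, upstream, Dll1− only, AP-1 match (chr5:87734466-87734565, minus strand): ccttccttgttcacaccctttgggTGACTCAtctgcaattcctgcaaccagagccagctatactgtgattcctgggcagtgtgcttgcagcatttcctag
Csn3, downstream, shared, STAT match (chr5:87932757-87932856, plus strand): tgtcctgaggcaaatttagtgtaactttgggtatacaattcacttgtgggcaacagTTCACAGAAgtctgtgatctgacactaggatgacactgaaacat

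Within 100 bp of the strongest summit, STAT and ELF5 matches were about as frequent in milk gene regions as in all regions. The STAT sequence was present in 3 of 37 (8.11%; 6.91% of all union regions), at Csn3, Wap and Btn1a1, all in shared regions. The ELF5 sequences were present in 4 (10.8%; 11.4% of all). The AP-1 sequences TGACTCA and TGAGTCA were present in 4 (10.8%; 18.1% of all), of which 2 were Dll1− only regions, at Csn2 and Btn1a1. Over all union regions the AP-1 sequences were present in 30.4% of Dll1− only, 15.4% of shared and 4.40% of Dll1+ only regions. The palindromes of NF1 (TTGGC and GCCAA, 5 bases apart) and of the glucocorticoid receptor (GNACA and TGTNC, 3 bases apart) were present in 0 of 37, and in 0.0520% and 0.592% of all regions. The Btn1a1 region with the STAT matches lay 19.2 kb downstream, over a tRNA gene, and there a STAT and an ELF5 match shared letters. Another ELF5 match lay in the Btn1a1 region 12.2 kb downstream, also over a tRNA gene.

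Genes that regulate and accompany milk protein synthesis are given beside the shares over all features. Of 15 genes of prolactin and STAT5 signaling, 14 had a promoter region in both lists, against 60.0% of all protein-coding genes, and 1, Tnfsf11 (the cytokine RANKL), had one in neither. Their 363 regions comprised 249 shared, 35 Dll1+ only (9.64%) and 79 Dll1− only (21.8%), and 57.8% of the shared regions ranked higher in the Dll1− list. Over all union regions these shares were 9.01%, 24.6% and 59.0%, so the regions of this list lay close to them. The genes with the most regions were Nfib (83), Id2 (52), Cebpb (45) and Nr3c1 (41), which encode transcriptional regulators. Nfib had 43 shared, 15 Dll1+ only and 25 Dll1− only regions.

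Of 20 genes of milk fat, lactose and transport, 18 had a promoter region in both lists, again against 60.0% of all genes, while Acaca and Cd36 had none in either. Their 209 regions comprised 151 shared, 16 Dll1+ only (7.66%) and 42 Dll1− only (20.1%), and 62.9% of the shared regions ranked higher in the Dll1− list, against the same 9.01%, 24.6% and 59.0%. The genes with the most regions were Srebf1 (23), a regulator of lipid synthesis, B4galt1 (21), the catalytic subunit of lactose synthase, and Slc2a1 (21), a glucose transporter. The 7 annotated neighbours of the casein genes had 21 regions, of which 17 were shared, 3 were Dll1+ only and 1 was Dll1− only. Csn1s2b, counted here as a neighbour, is itself a casein gene. Odam, Csn1s2b and 4 other neighbours had no promoter region in either list, against 36.4% of all genes, and Prol1 had one in the Dll1+ list only, against 0.525%.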

How the data were processed

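ATAC-seq samples of Dll1+ (n = 3) and Dll1− (n = 4) tumor cells were processed by the authors with the ENCODE ATAC-seq pipeline, the replicates of each group together. The deposited files are the optimal peak list of each group, with 132872 (Dll1+) and 148923 (Dll1−) rows. The aligner, the peak caller and the thresholds are not given in the sources used here. As deposited, the fold enrichment is a ratio of summit to local background, and the −log10 p-value is that of the authors' peak caller; the lowest is 2.00 in each list. The −log10 q-value and the capped score deposited by the authors were not used. Depth per sample is unknown. The submitters' processing notes name mm10 and GRCm38; summits lay within 100 bp of a TSS in 8.39% (Dll1+) and 7.67% (Dll1−) of rows, and in 0.440% and 0.460% after a shift of 10000 bp.

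Rows of both lists were merged, and midpoints were assigned to the nearest TSS of a protein-coding transcript (GENCODE M21). Coordinates are 1-based. Reads and background were solved from fold and p-value under a Poisson model in which fold is reads plus 1 over background plus 1, to within 0.01 in −log10 p; the model solved all but 1 Dll1− row. The ratio of reads compares the strongest summit of each list. Reads lack molecular identifiers, so intervals cover counting error only. Code was checked on simulated data. Python 3.11.15, pandas 2.3.3, numpy 2.4.6, scipy 1.17.1 and matplotlib 3.10.9 were used.

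For each gene the text gives the promoter region, the strongest shared region and every region called in 1 list only, and of each other gene list at most 4 genes with the most regions. The genes, gene lists and settings were chosen with earlier results of these data known. Alternatives changed the threshold, the number of rows, the overlap rule, the TSS set, the distance limit and the measure of strength. Results of some marker genes are not reported here. The authors' counts of reads per sample and their test between groups were not analysed here.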

Additional observations from a re-analysis of the deposited data

How the results depend on the processing

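Regions in both lists numbered 25, with 4 in the Dll1+ list only and 8 in the Dll1− list only, and 44.0% of shared regions ranked higher in the Dll1− list. With only rows above the median fold of their list these counts were 15, 2 and 4. A reciprocal overlap of 50% gave 8 Dll1+ only regions, TSS of all gene types gave 3 Dll1− only regions, and the asymmetric threshold, which asks a region called in 1 list only for a row above that median, gave 1 and 2. These alternatives remove rows, split regions or reassign them by construction. With reads over the genome-wide background in place of fold, 12.0% of shared regions (3 of 25) were higher in the Dll1− list; this scale compares reads between the lists and is not a rank. With equal numbers of rows the share by fold was 28.0%. Over all shared regions it was then 48.3%, against 59.0% with all rows. This setting removes rows from the Dll1− list only, which shifts the percentiles of that list by construction. No other cause was tested. The other alternatives (summits within 100 bp, a limit of 50 kb, 1 TSS per gene, −log10 p-value as strength, region maxima) kept each count and share within 1.5 times its value. Leaving out the 4 regions over tRNA genes, a setting chosen after seeing the data, gave 22 shared, 4 Dll1+ only and 7 Dll1− only regions, and 11 of the 22 ranked higher in the Dll1− list. No paired analysis was possible because the files used here hold 1 pooled list per group, and for the same reason no replicate could be left out. Scaled to the lower depth of the Dll1+ list, the weaker Dll1− only regions of Csn2 and Csn1s1 come to 10.4 and 11.4 reads. Dll1+ rows at the genome-wide background held 9 reads or more. The part of depth in the absence of these regions was not tested.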
